A study of Mus musculus with 4 samples.

Results

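The epidermal differentiation complex is a cluster of genes on mouse chromosome 3 whose products build the surface of stratified epithelia. Its members were taken by symbol: every row named Lce or Sprr with a digit, and Lor, Ivl, Flg2, Hrnr, Rptn, Crct1 and Lelp1. This gave 44 of the 24972 rows of the table. Sprr2a1, Sprr2a2 and Sprr2a3, which share much of their sequence, were summed, which left 42 members. Flg was not analysed here. RefSeq (GRCm38.p6, the mm10 sequence) places the 44 rows between positions 92080271 and 93399442 of chromosome 3, a span of 1.32 Mb.

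RNA was measured in the mandibular dental arch, the tooth-bearing strip of the lower jaw, at embryonic day 17.5. The 2 wild-type libraries (genotype Ascl5WTWT, codes 15 and 20) were compared with 2 libraries homozygous for an Ascl5 variant (Ascl5MutMut, codes 18 and 14), called mutant here. Ascl5 belongs to the basic helix-loop-helix factors, and the labels describe neither the variant nor the strain. Values given as a pair follow the order 15, 20 for wild type and 18, 14 for mutant. Each library is whole dissected tissue, so fewer cells of a type and less RNA per cell cannot be told apart. Nothing in the labels says whether libraries came from separate litters or pools, so a p-value measures only the spread between these samples.

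As keratinocytes leave the basal layer, they switch on the genes of this locus and cross-link the products beneath the plasma membrane into the cornified envelope. Loricrin (Lor) and involucrin (Ivl) are envelope proteins, and the small proline-rich (Sprr) and late cornified envelope (Lce) proteins are short cross-linked partners. The fused S100 proteins Hrnr (hornerin), Rptn (repetin) and Flg2 carry long repeats behind a calcium-binding start. Sprr3 and Sprr1a are typical of oral and other internal stratified linings, while loricrin and the Lce1 proteins are typical of cornifying epidermis.

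The libraries were not alike apart from genotype, and each fact touches the results below. The normalized counts summed to between 22134500 and 22578600 per library. Xist was at 38619 in wild-type library 15 and between 5.005 and 12.7 in the other libraries. The Y-linked gene Ddx3y was at 0 in library 15 and between 2382 and 3027 in the others, so wild type held both sexes and mutant only males. Mutant library 14 held far more salivary gland RNA, with the summed list of salivary genes at 6368 against 4.98 to 46.8 in the other libraries. The tissue carried its labelled markers of bone and dentin, such as Col1a1 (412514 to 541155) and Dspp (629 to 1910).

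The stretch of 250 bases upstream of the annotated start is shown for Lor, Hrnr and the most abundant Lce1, Lce3 and Sprr members with a RefSeq promoter entry (build GRCm38.p6), because most of these genes lay higher in mutant together. Letters in capitals mark the TATA box TATAAA and the AP-1 motif TGANTCA, searched on both strands.
Lor (chr3:92083143-92083392, minus strand): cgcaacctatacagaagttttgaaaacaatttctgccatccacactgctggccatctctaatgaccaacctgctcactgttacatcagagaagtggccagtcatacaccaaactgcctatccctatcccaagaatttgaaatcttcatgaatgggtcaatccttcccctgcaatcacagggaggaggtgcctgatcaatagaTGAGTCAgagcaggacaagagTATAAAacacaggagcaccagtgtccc
Hrnr (chr3:93319499-93319748, plus strand): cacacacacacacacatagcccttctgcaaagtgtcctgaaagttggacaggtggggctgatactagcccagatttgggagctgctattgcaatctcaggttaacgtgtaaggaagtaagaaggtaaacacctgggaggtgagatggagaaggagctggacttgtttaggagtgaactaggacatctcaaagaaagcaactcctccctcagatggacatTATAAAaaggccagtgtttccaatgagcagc
Lce1m (chr3:93019062-93019311, minus strand): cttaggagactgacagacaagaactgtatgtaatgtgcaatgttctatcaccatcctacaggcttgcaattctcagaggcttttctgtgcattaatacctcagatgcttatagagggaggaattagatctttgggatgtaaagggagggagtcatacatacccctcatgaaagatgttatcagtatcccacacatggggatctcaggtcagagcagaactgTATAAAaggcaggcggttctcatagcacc
Lce1a1 (chr3:92648308-92648557, minus strand): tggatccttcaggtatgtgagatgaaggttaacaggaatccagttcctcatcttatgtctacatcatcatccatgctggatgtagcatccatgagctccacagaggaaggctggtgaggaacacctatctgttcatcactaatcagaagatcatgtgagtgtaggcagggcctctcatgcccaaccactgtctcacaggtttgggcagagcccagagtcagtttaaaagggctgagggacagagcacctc
Lce3f (chr3:92991967-92992216, plus strand): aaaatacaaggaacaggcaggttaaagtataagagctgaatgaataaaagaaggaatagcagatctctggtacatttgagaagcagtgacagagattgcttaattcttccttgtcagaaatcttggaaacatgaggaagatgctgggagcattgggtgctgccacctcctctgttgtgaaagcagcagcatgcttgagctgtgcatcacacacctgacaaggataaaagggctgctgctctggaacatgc
Sprr3 (chr3:92458721-92458970, minus strand): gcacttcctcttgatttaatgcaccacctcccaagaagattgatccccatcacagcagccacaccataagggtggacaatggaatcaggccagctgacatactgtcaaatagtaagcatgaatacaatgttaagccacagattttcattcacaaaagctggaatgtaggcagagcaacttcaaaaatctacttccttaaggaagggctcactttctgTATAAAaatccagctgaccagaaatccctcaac
Sprr1a (chr3:92485882-92486131, minus strand): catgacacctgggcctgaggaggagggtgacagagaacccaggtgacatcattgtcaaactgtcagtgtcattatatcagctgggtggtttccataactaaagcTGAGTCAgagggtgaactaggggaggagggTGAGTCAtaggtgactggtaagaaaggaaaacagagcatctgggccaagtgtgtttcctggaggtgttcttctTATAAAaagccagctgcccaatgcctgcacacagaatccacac
Exact matches in these stretches differed by family. Of the 40 promoters matched to members and Sprr2a copies, 18 (45.0%) held TATAAA and 13 (32.5%) held TGANTCA within the 300-base window (250 bases before and 50 after the start), against 13.6% and 7.81% of all 32851 promoters. TATAAA stood in 10 of 14 Sprr promoters, but in 2 of 13 Lce1 (15.4%) and 1 of 6 Lce3 (16.7%), near the share of all promoters. Only these exact letters were counted. Near variants close to the start, such as tttaaaa in Lce1a1 and gataaaa in Lce3f, were left out. Whether the families differ in TATA-like sequence was therefore not tested. The matches in Lce6a (-218) and Lce3e (-243) were on the opposite strand and far upstream. The AP-1 motif stood in 9 of 14 Sprr promoters and in those of Lor (position -48), Ivl (-116), Flg2 (-69) and Rptn (-96). It stood in 0 of 13 Lce1 and 0 of 6 Lce3 promoters. Sprr1a held 2 copies, at -146 and -116, and Sprr3 none in this window. The KLF core CACCC stood in 20 of 40 promoters (57.5% of all promoters), the E-box CAGCTG, a class of motif that basic helix-loop-helix factors bind, in 3 of 40 (16.3% of all), and the Grainyhead-like motif AACCGGTT in 0 of 40 (0.146% of all). Positions count from the start in the promoter table, which for Ivl and Sprr1b lies inside the outermost bound of the annotated gene. A match describes letters and not a bound site. The promoters of a family also shared sequence to a varying degree. Over 78 pairs of Lce1 promoters the identity had a median of 63.7% and ran from 48.3% to 86%. Identity was taken from the edit distance over the 300 bases, and unrelated promoters were not scored for comparison. Members were not taken as independent.

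Most members lay higher in mutant, about 2-fold, but none passed the test over all genes. Of the 42 members, 37 reached a mean of 1 normalized count over the 4 libraries and were tested. Of these, 29 had both mutant values above both wild-type values, and 0 had both below. Over all 17977 genes tested the shares were 13.4% higher and 14% lower. With limma on log2(value + 0.5) and Benjamini-Hochberg adjustment over all genes, 0 of 37 members passed 0.05, where 0.0111% of all genes did in either direction and 0.00556% in the higher direction. At an unadjusted p under 0.05, 25 members were higher and 0 lower (limma), beside 3.12% and 1.15% of all genes. Sprr2g, counted in the 29 and in the 25, was at 0 in both wild-type libraries. It reached the mean of 1 only through its mutant values, so its lack of overlap was fixed by the filter. The median log2 fold change of the 37 members was 1.06, beside 0.0025 over all genes tested. The lowest adjusted p of a member was 0.326 (limma). An exact permutation test of 2 libraries against 2 cannot go below 0.333.

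**Figure D1:**
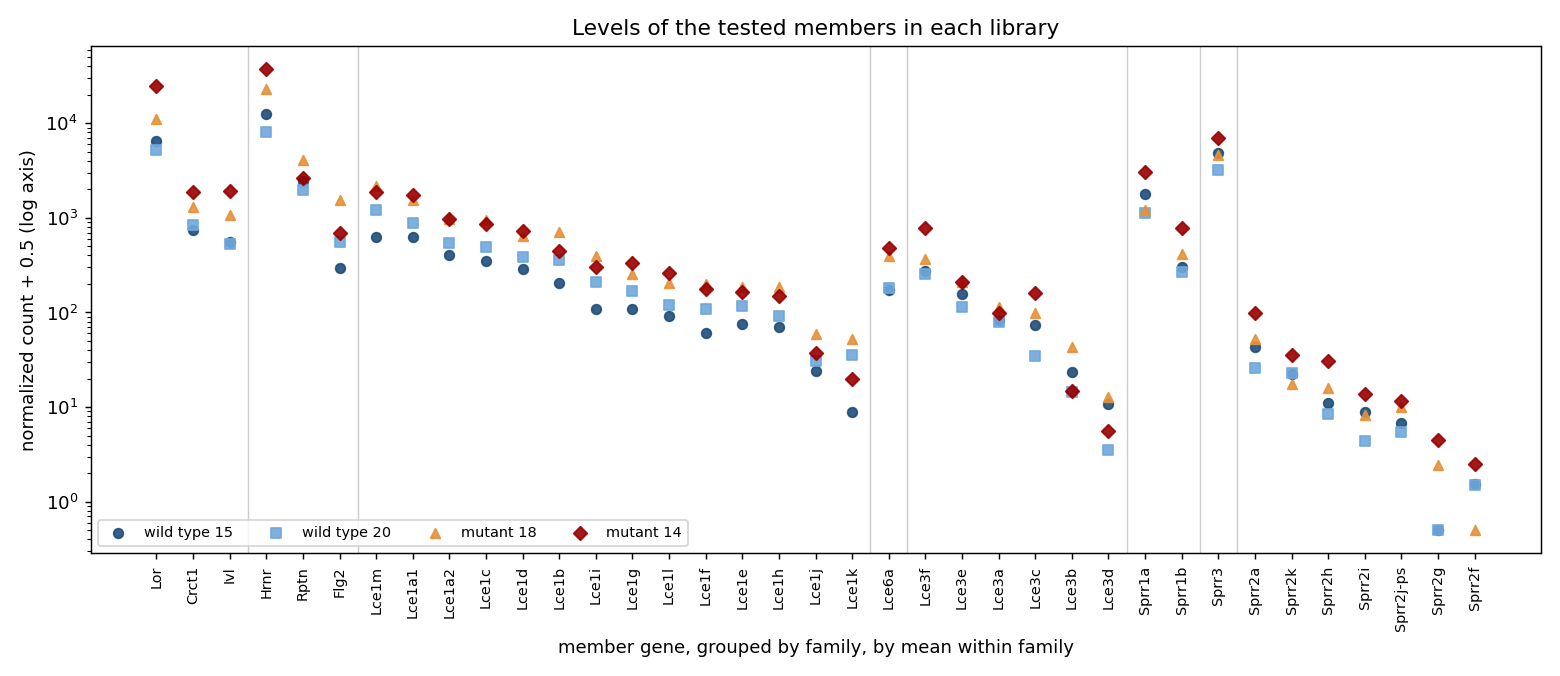
Normalized count plus 0.5 (log axis) of each of the 37 tested members in the 4 libraries, grouped by family. Both mutant libraries sit above both wild-type libraries for 29 members; in the Sprr genes mutant library 14 sits on top, while in most Lce1 genes mutant library 18 is as high.

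The members summed to 33981 and 27365 normalized counts in the wild-type pair, against 57897 and 90199 in the mutant pair. That is 0.152% and 0.121% of the library in wild type and 0.257% and 0.408% in mutant. Both mutant sums lay above both wild-type sums, with a ratio of the means of 2.41 (exact permutation test, two-sided p = 0.333, the smallest this design allows). Hrnr and Lor supplied 48.7% to 69.0% of the sum, so the sum mostly follows these genes.

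Loricrin, the main protein of the epidermal envelope, had 6447 and 5195 normalized counts in the wild-type pair, against 10973 and 24814 in the mutant pair. The mutant libraries did not overlap wild type but differed from each other by more than the wild-type libraries did. The log2 fold change was 1.51 (SE 0.34, limma, adjusted p = 0.465). Per kilobase of transcript the mean level of Lor was 3272 in wild type and 10058 in mutant.

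Involucrin, which is laid down early in envelope assembly, was at 553 and 531 in the wild-type pair, against 1078 and 1911 in the mutant pair. The wild-type values lay close together and both mutant values were above them. The log2 fold change of Ivl was 1.40 (SE 0.25, limma, adjusted p = 0.326). Crct1, a small cysteine-rich protein gene beside the Lce genes, was at 750 and 845 in the wild-type pair, against 1294 and 1890 in the mutant pair, again without overlap (log2 fold change 0.97, SE 0.20). Lelp1 was listed at 0 in every library.

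The fused S100 genes were all higher in both mutant libraries. Hrnr, the most abundant member by count, was at 12601 and 8143 in the wild-type pair, against 22753 and 37407 in the mutant pair (log2 fold change 1.53, SE 0.29, limma, adjusted p = 0.338). Per kilobase of its long transcript Hrnr had a mean level of 927 in wild type and 2689 in mutant, below Lor. Flg2 was at 293 and 553 in the wild-type pair, against 1561 and 696 in the mutant pair, highest in library 18 (log2 fold change 1.37, SE 0.40). Rptn was at 2459 and 1986 in the wild-type pair, against 4127 and 2657 in the mutant pair. Its mutant library 14 lay just above wild type 15, and the log2 fold change was 0.58 (SE 0.22), the smallest of the family. Between the mutant libraries the fused S100 genes differed in order, since Hrnr was higher in library 14 and Flg2 and Rptn in library 18.

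**Figure D2:**
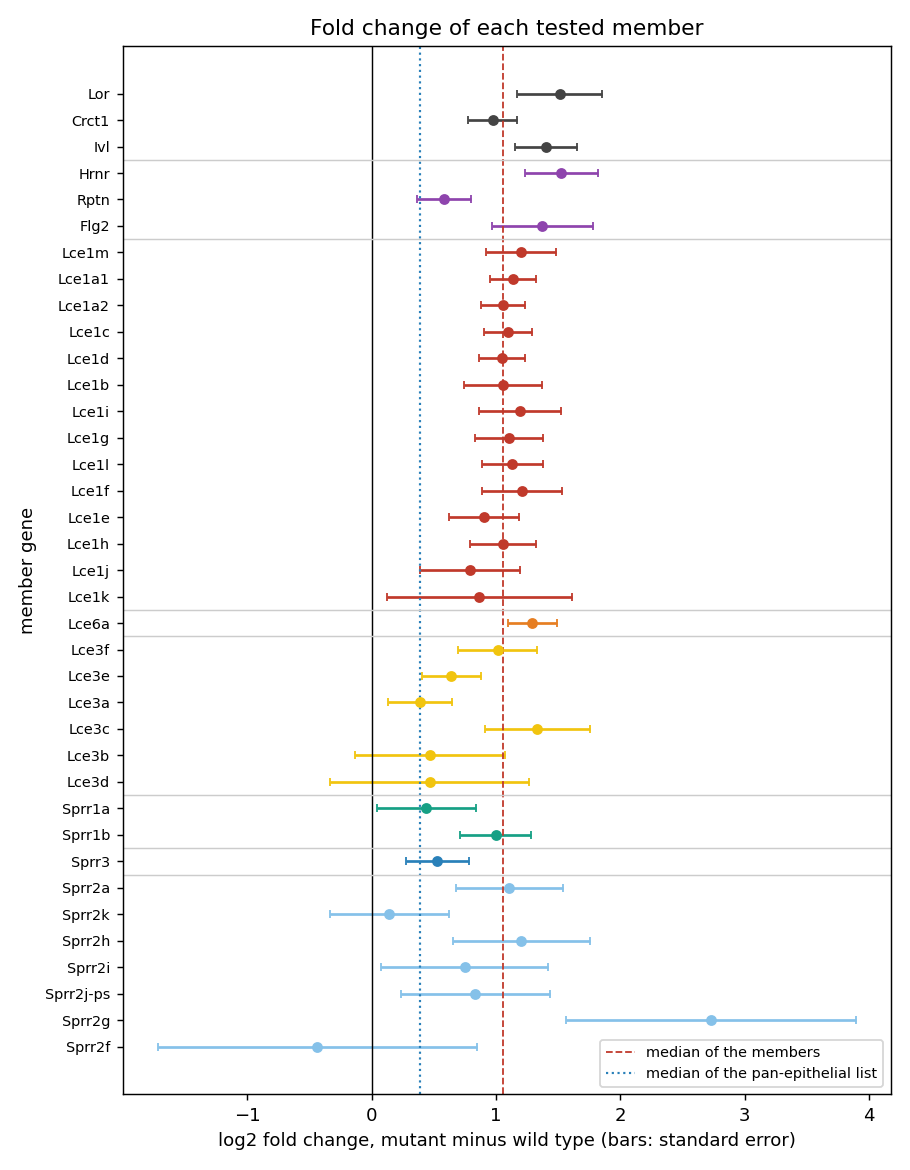
Log2 fold change (mutant minus wild type, log2(value + 0.5) scale) of each tested member with its standard error from limma, coloured by family. Lce1 members cluster between 0.79 and 1.21 around the members' median of 1.06 (dashed line), and the pan-epithelial list's median of 0.39 (dotted line) lies below most of them.

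The Lce1 genes, which encode short cysteine-rich proteins of late cornification, were higher by similar ratios. Their 14 members summed to 3041 and 4755 normalized counts in the wild-type pair, against 8494 and 8043 in the mutant pair, a ratio of the means of 2.12 (exact permutation test, two-sided p = 0.333). The 2 mutant sums were close to each other and both were above wild type, and wild-type library 20 was above 15. Of the 14 members, 13 did not overlap between genotypes, and their ratio of mutant to wild-type means ran from 1.78 to 2.22. The exception, Lce1k, was at 8.29 and 34.8 in the wild-type pair, against 51.6 and 19.3 in the mutant pair. The log2 fold changes of the 14 ran from 0.79 to 1.21 with limma, with adjusted p-values from 0.326 to 0.9999.

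Among the abundant Lce1 genes, Lce1m was at 626 and 1223 in the wild-type pair, against 2144 and 1887 in the mutant pair. Lce1a1 was at 620 and 875 in the wild-type pair, against 1526 and 1724 in the mutant pair, and Lce1a2 at 404 and 545 and then 978 and 974. In each of the 3 the mutant libraries were closer to each other than the wild-type libraries were. Lce1c was at 354 and 497 in the wild-type pair, against 948 and 851 in the mutant pair. Lce1d was at 291 and 382 in the wild-type pair, against 648 and 732 in the mutant pair. The lower members repeated this order, from Lce1b (204 and 354, then 712 and 442) down to Lce1j (23.6 and 30.1, then 59.1 and 36.6). In Lce1b and Lce1j mutant library 14 was nearer to wild type than library 18 was.

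Lce1i was at 107 and 211 in the wild-type pair, against 397 and 300 in the mutant pair, and Lce1g at 108 and 170 and then 256 and 329. Lce1l was at 92.3 and 118 in the wild-type pair, against 204 and 258 in the mutant pair. Lce1f was at 59.6 and 109 in the wild-type pair, against 198 and 177 in the mutant pair. All 4 were higher in both mutant libraries than in either wild-type library. The same held for Lce1e, at 75.2 and 115 in the wild-type pair, against 186 and 164 in the mutant pair, and for Lce1h, at 69.7 and 90.6 and then 185 and 150.

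Library order was shared across the Lce1 family. Wild-type library 20 was above 15 in 14 of 14 members, and mutant 18 was above 14 in 10 of 14. Up to 27.1% of the distinct 50-base words of an Lce1 transcript in GENCODE M21 occur in another gene and 0% of those of Lce1m. The authors' counting could split such reads between members, so single Lce1 values are less certain than their sum, while Lce1m, which shares none, was at a ratio of means of 2.18.

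Lce6a, a separate late cornified envelope gene next to the Lce1 group, was at 173 and 181 in the wild-type pair, against 391 and 483 in the mutant pair. It had the smallest unadjusted p of the members (0.00019, limma, adjusted p = 0.326) and a log2 fold change of 1.29 (SE 0.19). Its replicates lay close together in both genotypes, and none of its 50-base words occur in another gene.

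The Lce3 genes, which in adult skin are linked to barrier injury, differed by less uniform ratios. Their 6 members summed to 615 and 502 in the wild-type pair, against 845 and 1260 in the mutant pair (ratio of the means 1.89). Here the order of the wild-type libraries was the opposite of that in Lce1, with library 15 above 20 in 6 of 6 members. Lce3f was at 271 and 257 in the wild-type pair, against 368 and 774 in the mutant pair (log2 fold change 1.01, SE 0.32). Lce3c was at 72.9 and 34.1 in the wild-type pair, against 99.3 and 161 in the mutant pair. Lce3e was at 156 and 114 in the wild-type pair, against 209 and 207 in the mutant pair, and Lce3a at 81.8 and 79.7 and then 114 and 98.5. These 4 did not overlap between genotypes, though Lce3a differed little (log2 fold change 0.39, SE 0.26) and stood at -0.029 when scaled to the pan-epithelial list. Lce3b (22.7 and 13.96, then 43.0 and 14.2) and Lce3d (10.3 and 3.0, then 12.4 and 5.08) overlapped. Lce3 transcripts share between 12.1% and 49.3% of their 50-base words with other genes, so the authors' counting could split reads between them.

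The Sprr genes, the proline-rich cross-linking partners, had the smallest ratio of summed levels among the Lce1, Lce3, Sprr and fused S100 families. Their 14 members summed to 7048 and 4675 normalized counts in the wild-type pair, against 6379 and 11038 in the mutant pair, which overlap (ratio of the means 1.49, exact permutation test, two-sided p = 0.667). Mutant 18 lay below wild type 15. Sprr3, the esophageal and oral form and the bulk of the sum, was at 4881 and 3214 in the wild-type pair, against 4641 and 7037 in the mutant pair (log2 fold change 0.53, SE 0.25). Sprr1a was at 1773 and 1129 in the wild-type pair, against 1218 and 3032 in the mutant pair (log2 fold change 0.44, SE 0.40). Both overlapped, with mutant 18 inside the wild-type range and mutant 14 above it. Sprr1b, its close relative, was at 303 and 264 in the wild-type pair, against 414 and 774 in the mutant pair, without overlap (log2 fold change 0.998, SE 0.28). Per kilobase, Sprr3 had a mean level of 3312 in wild type, near that of Lor, and 4778 in mutant, below that of Lor.

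The Sprr2 genes were near the floor of the measurement. The Sprr2a sum was at 42.5 and 25.4 in the wild-type pair, against 52.2 and 97.5 in the mutant pair (log2 fold change 1.11, SE 0.43). The copies behind it swapped by genotype, since Sprr2a1 was listed at 0 in the wild-type pair but reached 48.4 and 90.4 in the mutant pair, and Sprr2a2 had 39.4 and 24.4 in the wild-type pair but 0 in the mutant pair. Sprr2a1 shares 96.3% of its 50-base words with other genes of the annotation, so the copies were read only as a sum. Sprr2h was at 10.5 and 7.90 in the wild-type pair, against 15.3 and 30.4 in the mutant pair, and Sprr2k at 22.1 and 22.6 and then 17.2 and 35.4, with overlap. Sprr2g, a transcribed pseudogene in RefSeq, stood at 0 in libraries 15 and 20, with 1.92 and 4.01 in the mutant pair. Sprr2f lay between 0 and 2.03 in the 4 libraries. Sprr2i and Sprr2j-ps lay between 3.93 and 13.2. Not tested were Sprr2b, Sprr2d, Sprr2e and Sprr4, each at or under 2.03 in every library, and Lelp1.

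The families ordered the mutant libraries differently. All 10 tested Sprr members were higher in mutant 14 than in mutant 18, against 4 of 14 Lce1 members. The median log2 difference from the wild-type mean was 0.46 for Sprr in mutant 18 and 1.11 in mutant 14, and for Lce1 it was 1.15 in mutant 18 and 1.04 in mutant 14. Both mutant libraries are set against the same wild-type mean, so the values are given side by side only. The ratio of summed Lce1 to summed Sprr was 0.431 and 1.02 in the wild-type pair, against 1.33 and 0.729 in the mutant pair. It overlapped between genotypes (exact permutation test, two-sided p = 0.667), so no difference between the families in their response was shown.

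**Figure D3:**
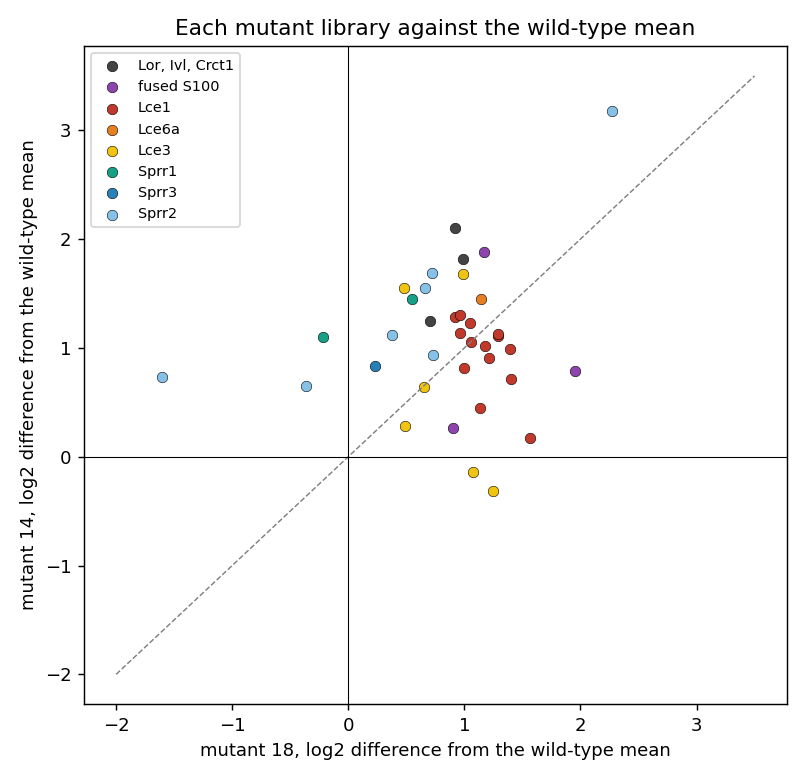
Log2 difference of mutant library 18 (x axis) and mutant library 14 (y axis) from the wild-type mean, 1 point per tested member, coloured by family, with the line of equality dashed; both axes share the wild-type mean. Lce1 points lie around and mostly below the line, and all Sprr points lie above it.

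Along the locus the values did not follow position alone. Lor, at the lower-coordinate end, had a log2 fold change of 1.51. The Sprr block that follows ran from -0.44 (Sprr2f) to 2.72 (Sprr2g), both near 1 normalized count, with Sprr2k, Sprr1a and Sprr3 between 0.14 and 0.53 and Sprr1b, Sprr2a and Sprr2h between 0.998 and 1.203. The Sprr2g value depends on the 0.5 added, since wild type was listed at 0, and is no bound. Ivl, Lce6a and the Lce1 block lay between 0.79 and 1.40. The Lce3 block lay between 0.39 and 1.33, and Crct1 and Lce1m beyond it lay at 0.97 and 1.201. At the far end Hrnr and its neighbour Rptn had log2 fold changes of 1.53 and 0.58.

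**Figure D4:**
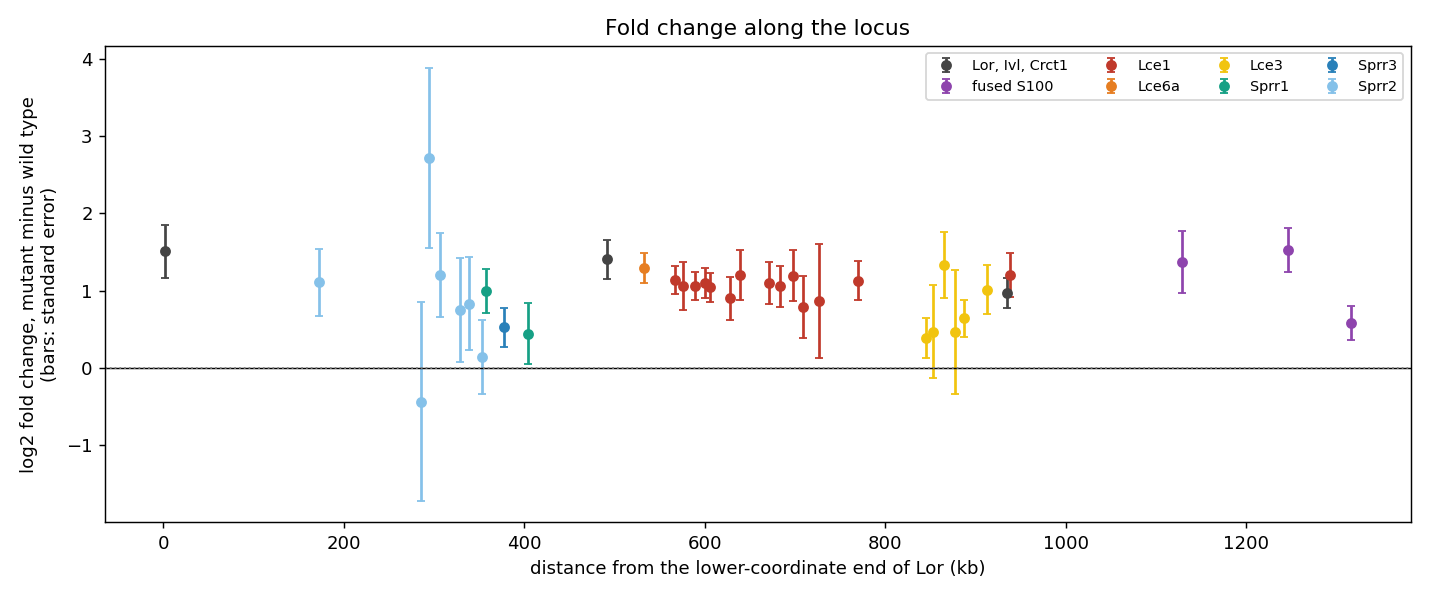
Log2 fold change with standard error (limma) of each tested member against its distance in kb from the lower-coordinate end of Lor, coloured by family; Sprr2a is placed at the middle of its copies. The Lce1 block is even, between 0.79 and 1.21, and the neighbouring Sprr and Lce3 blocks are more scattered.

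Other genes of the region were mixed. This list holds S100 genes of the same chromosome and a few cornified proteins. Of its 21 genes 19 were tested, and 0 were called over all genes. Of the 19, 6 were higher in mutant without overlap (13.4% of all genes) and 0 lower (14% of all genes). Their median log2 fold change was 0.25, and -0.17 when scaled to the pan-epithelial list. Kprp, a keratinocyte proline-rich protein inside the cluster, was at 1033 and 698 in the wild-type pair, against 1609 and 2841 in the mutant pair. The log2 fold change was 1.33 for Kprp and 1.39 for 2310050C09Rik, which overlapped. For Pglyrp4, a peptidoglycan recognition protein gene at low counts (7.36 and 5.91, then 16.2 and 32.4), it was 1.72 (SE 0.56). Tchh (0.32), Prr9 (0.18) and Tchhl1 (0.11) of the same list overlapped. The abundant S100 genes had log2 fold changes from 0.17 (S100a10) to 0.74 (S100a14), with S100a10 at 4390 ± 1184 (SD, n = 2) in wild type and 4834 ± 12.9 in mutant, S100a11 at 4210 ± 788 and 4750 ± 583, and S100a16 at 2077 ± 453 and 2731 ± 413, the last without overlap. S100a14 averaged 1640 ± 432 (wild type) and 2721 ± 642 (mutant), without overlap.

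Genes that act with the members in envelope assembly were mostly higher. Of 16, 15 were higher in mutant without overlap (13.4% of all genes) and 0 lower (14% of all genes). The median log2 fold change of the 16 was 0.95, and 0 were called over all genes. Asprv1, a protease of the granular layer, was at 6105 and 5416 in the wild-type pair, against 10301 and 18661 in the mutant pair. Dmkn was at 5206 and 6010 in the wild-type pair, against 9116 and 14756 in the mutant pair, Sbsn at 2676 and 2856 and then 4494 and 8485. The scaffold periplakin, Ppl, was at 3434 and 2230 in the wild-type pair, against 3528 and 8105 in the mutant pair, so library 18 barely exceeded wild type 15. The cross-linking enzyme Tgm1 was at 686 and 485 in the wild-type pair, against 709 and 1738 in the mutant pair, in the same order.

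Transcription factors known to act on the locus were mixed. Of 17, 7 were higher without overlap (13.4% of all genes), 3 were lower without overlap (14% of all genes) and 0 were called. The median log2 fold change was 0.23, and -0.19 when scaled to the pan-epithelial list. Fosl2 (0.097), Klf4 (0.19) and Trp63 (0.23), the 3 with the highest means, had small log2 fold changes. Gata3 (1.02), Ovol1 (0.997), Grhl1 (0.93) and Barx2 (0.66) had larger ones and did not overlap between genotypes. Lower without overlap were Maf (-0.15), Satb1 (-0.20) and Fosl1 (-0.46), the last at 2.04 to 4.13 normalized counts. Klf4, a factor of late epidermal differentiation, overlapped at 3390 ± 504 in wild type and 3922 ± 1109 in mutant (SD, n = 2).

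Markers of the keratinocyte layers differed to different degrees. Over all genes, 13.4% were higher and 14% lower without overlap, which the counts below stand beside. The suprabasal keratins of epidermis summed to 56358 and 37237 in the wild-type pair, against 90539 and 152093 in the mutant pair, and 2 of 5 did not overlap. Krt10 was at 26688 and 18842 in the wild-type pair, against 44334 and 75914 in the mutant pair, and Krt1 at 26194 and 16815 and then 43207 and 63337. The oral lining keratins summed to 41385 and 49777 in the wild-type pair, against 51205 and 67155 in the mutant pair, with 4 of 8 higher without overlap and a median log2 fold change of 0.37. Krt13 was at 17536 and 22040 in the wild-type pair, against 23313 and 30216 in the mutant pair. Basal keratinocyte markers summed to 29733 and 44628 in the wild-type pair, against 44256 and 53915 in the mutant pair, which overlap, and 3 of 8 were higher without overlap.

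General epithelial markers were mixed in mutant 18 and high in mutant 14. The 13 pan-epithelial genes summed to 7441 and 7724 in the wild-type pair, against 7764 and 12921 in the mutant pair. Of them 7 were higher without overlap, beside 13.4% of all genes. In mutant 18, 7 of the 13 lay above both wild-type libraries and 5 below both, among them Epcam (612, wild type 722 and 905). In mutant 14 all 13 lay above both. Of all genes tested with the other mutant library left out, 31.8% lay above both in mutant 18 and 30.8% in mutant 14. The share of all genes below both was not computed. Without mutant library 14 the median log2 fold change of this list was 0.026 and that of the members 0.99. Without mutant library 18 these medians were 0.81 and 1.10. Per unit of the summed pan-epithelial list, the members stood at 4.57 and 3.54 in the wild-type pair, against 7.46 and 6.98 in the mutant pair, without overlap (exact permutation test, two-sided p = 0.333). Per unit of the summed suprabasal keratins they stood at 0.603 and 0.735 in the wild-type pair, against 0.639 and 0.593 in the mutant pair, which overlap (p = 0.667, exact permutation test). Scaled so that the pan-epithelial list had the same mean log2 level in each library, the median of all genes was -0.41 and that of the members 0.64. The scaling factor was 0.652 for mutant 14 and 1.15 to 1.16 for the other libraries. Mutant 14 also carried the salivary gland RNA, whose part in the pan-epithelial sum and scaling was not tested. In that scaling 16 members were higher without overlap, beside 3.76% of all genes, and 1 lower, and 0 were higher at an unadjusted p under 0.05 (limma; 0.701% of all genes).

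**Figure D5:**
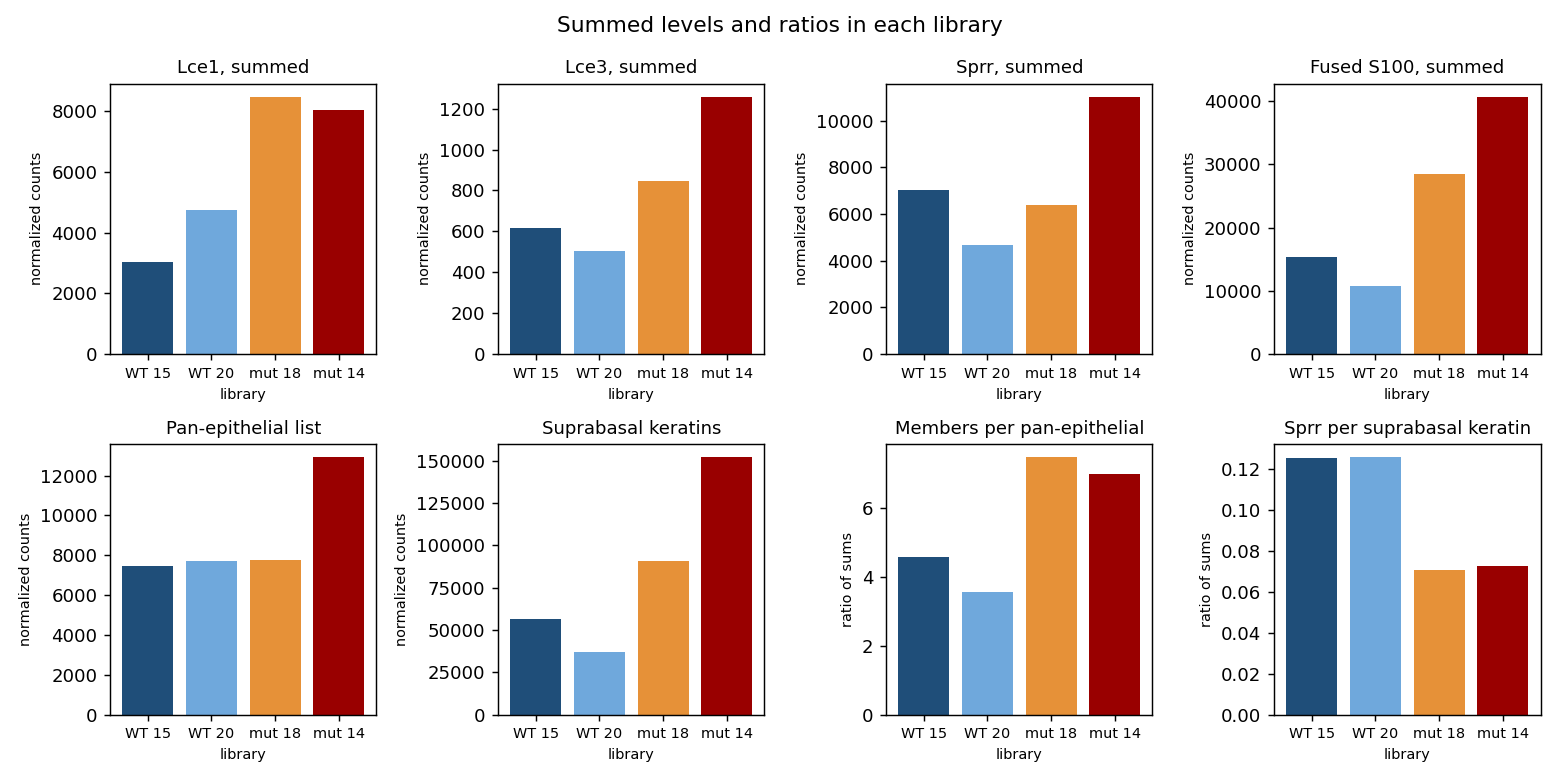
Summed normalized counts of 4 member families and 2 marker lists, and 2 ratios of sums, as bars starting at 0 for each library (WT, wild type; mut, mutant). Lce1 and fused S100 sums are higher in both mutant libraries, the pan-epithelial sum of mutant 18 (7764) lies just above wild type, and the members per pan-epithelial unit reach 7.46 and 6.98 in mutant libraries (wild type 4.57 and 3.54).

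Markers of other cell types also differed between libraries. Over all genes, 13.4% were higher and 14% lower without overlap. Salivary gland genes were abundant only in mutant 14, where Smgc was at 4219 against 0 to 0.953 in the other libraries. Hair follicle genes summed to 1789 and 1736 in the wild-type pair, against 2642 and 1752 in the mutant pair, highest in library 18, and 3 of 8 were higher without overlap. All 7 melanocyte genes were higher without overlap, beside 13.4% of all genes. They summed to 346 and 378 in the wild-type pair, against 505 and 544 in the mutant pair. Of these sums Mitf alone supplied 250 and 259, then 303 and 269 (log2 fold change 0.17). Mlana lay between 0 and 4.79 and Slc45a2 between 2.11 and 10.1, near the floor. Mlana reached the filter mean of 1 only through its mutant values. Enamel epithelium genes summed to 3726 and 9245 in the wild-type pair, against 7354 and 4119 in the mutant pair and overlapped. Genes of mesenchyme, bone, dentin and cartilage had a median log2 fold change of -0.42, with 6 of 8 lower without overlap. Their part in the members' values was not tested.

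The members' median kept its sign without each library in turn. Without mutant 14, which carried the salivary RNA, it was 0.99. Then 31 of 35 tested members were higher without overlap (31.8% of all genes) and 20 at an unadjusted p under 0.05 (limma, 1.39% of all genes). Without mutant 18 it was 1.10, with 35 of 38 higher without overlap (30.8%) and 18 at that p (4.87%). Without wild type 15, the female library, it was 0.86, with 34 of 38 higher without overlap (30%) and 22 at that p (2.96%). Without wild type 20 it was 1.21, with 30 of 37 (33%) and 17 (2.05%). With sex as a covariate the median was 0.87, and 14 members were higher at an unadjusted p under 0.05 (limma, 2.27% of all genes). Only library 15 was female, so this fit gives a gene the same fold change as leaving out library 15. It is no separate check. Sprr1a and Sprr2k changed sign without mutant 14.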

How the data were processed

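The 4 libraries, made with a stranded mRNA kit per the labels' protocols, were compared by genotype. The table deposited by the authors holds 1 signal value per gene and library, a normalized count and no whole-read count. DESeq2 and build mm10 appear in the submitters' processing notes. Aligner, counter, strand setting and annotation: not given in the sources used here. A value near 1 is about 1 read (commonest low values 0.95 to 1.05), but only 32.4% to 34.6% of values above 0 were whole multiples within 0.1, so whole reads were not recovered and depth is known only as normalized totals.

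Values were transformed to log2(value + 0.5) after summing the 3 Sprr2a copies, genes with a mean of at least 1 were kept (17977), and genotype was fitted across all of them by limma 3.58.1 (R 4.3.3; trended variance, Benjamini-Hochberg adjustment). Fold changes on that scale understate changes of low genes. The fit was also run on simulated counts with the same dispersion for every gene. Mutant values of Lor were as far apart as 10973 and 24814, so that run does not show how the fit performs on the members. Sums were compared by exact two-sided permutation tests over libraries. The unit needed the stated normalized-value test, not a count test. Members were located and promoters taken from RefSeq GRCm38.p6, and transcript lengths (the longest transcript) and shared 50-base words from GENCODE M21.

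The members and lists were chosen with earlier results of these data known. Values per library are given for the single-gene members, the Sprr2a sum, Lce and Sprr members with a mean of at least 50, and the 3 Lce and 3 Sprr members with the largest fold changes in each direction. Kprp, Pglyrp4, 2310050C09Rik, Epcam, Gata3, Ovol1, Grhl1, Barx2, Ppl, Tgm1, Dspp, Lce1j, Lce1k, Lce3b, Lce3d, Sprr2i and Sprr2j-ps were named after their values were seen. So were Maf, Satb1, Fosl1, Tchh, Prr9, Tchhl1, Mlana and Slc45a2. Of the other lists, up to 4 members with the highest means were taken for naming. A gene that this rule selects is not reported here. Alternatives covered pseudocount, filter, scaling, variance model, a sex covariate and each library left out.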

Additional observations from a re-analysis of the deposited data

How the results depend on the processing

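No paired analysis was possible because the genotypes share no replicate number. No member was called with limma under any alternative run (lowest adjusted p 0.0672, for Sprr2a1 with the copies kept apart). Of the values of the 33 named members under alternatives, 513 kept their direction and 8 changed sign. As no member was called in any setting, the side of the threshold never varied. Settings such as the filter and the variance model leave a fold change unaltered, so the 513 are not separate checks. Leaving out each library in turn gave a members' median log2 fold change from 0.86 to 1.21.

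Scaled to the pan-epithelial list, 16 of 36 tested members were higher without overlap, beside 3.76% of all genes, and 1 was lower. In this setting 0 members were higher at an unadjusted p under 0.05 (limma) and the members' median was 0.64. In that scaling the median was -0.17 for the other genes of the region, -0.19 for the regulators, -0.029 for Lce3a and -0.27 for Sprr2k. A sex covariate gives the same fold changes as leaving out the female library. With it, 14 members were higher at an unadjusted p under 0.05 (limma, 2.27% of all genes). In log2 ratios of sums, the fused S100 genes without Hrnr stood at 0.77, the members per suprabasal keratin without Hrnr at -0.28, and Sprr per suprabasal keratin at -0.77 without Sprr3 and at 0.11 with the pan-epithelial list as denominator. The cause of these shifts was not tested.

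With each library left out in turn, the log2 fold change ran from -0.22 to 1.10 for Sprr1a, from -0.35 to 1.28 for Lce3d, from -0.31 to 1.25 for Lce3b, from -0.14 to 1.87 for Lce1k, from -0.47 to 0.73 for Sprr2f and from -0.37 to 0.65 for Sprr2k. The log2 ratio of sums ran from 0.84 to 1.35 for Lce, from 0.80 to 1.44 for Lce1, from 0.66 to 1.03 for members per pan-epithelial unit and from -0.25 to 0.032 for members per suprabasal keratin. With 1 library left in a genotype, it is assumed to vary like the other. Read depth is known only as normalized totals, so members near 1 normalized count carry little information.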

Other observations

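Summed Sprr per unit of summed suprabasal keratin was 0.125 in library 15 and 0.126 in library 20 of wild type, and 0.0705 in library 18 and 0.0726 in library 14 of mutant. Both mutant ratios lay below both wild-type ratios (exact permutation test, two-sided p = 0.333, the smallest this design allows). The ratio was chosen after the values were seen. Lce3 per unit of suprabasal keratin was lower in the same way, at 0.0109 and 0.0135 for wild type and 0.00934 and 0.00828 for mutant. The fused S100 genes overlapped, at 0.272 and 0.287 for wild type and 0.314 and 0.268 for mutant. Per unit of the pan-epithelial list the Sprr sum overlapped, at 0.947 and 0.605 for wild type and 0.822 and 0.854 for mutant. Lce1 per unit of suprabasal keratin also overlapped, at 0.054 and 0.128 for wild type and 0.0938 and 0.0529 for mutant.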
